A study of Mus musculus with 27 samples.

Results

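The 9 genes described here encode the mouse enzymes that place, keep and remove methyl groups on cytosine in DNA, with the partner proteins on which they depend. They were taken by name from the count table of a study of mouse morulae, where they are 9 of 55369 rows: Dnmt1, Uhrf1, Dnmt3a, Dnmt3b, Dnmt3l, Tet1, Tet2, Tet3 and Tdg. All 9 passed the filter on low counts in each fit. The samples were 27 libraries of polyadenylated RNA, each from a pool of 15 to 20 wildtype embryos cultured in KSOM medium and collected at embryonic day E2.75, with 3 libraries in each of 9 groups. In 4 groups embryos were cultured from day E2.5 with SAHA (500 nM) or TSA (50 nM), which inhibit histone deacetylases, with A485 (10 uM), which inhibits the acetyltransferases p300 and CBP, or with Vehicle. In 5 groups siRNA was injected into the cytoplasm of the zygote at day E0.5: siControl, siP300, siKat6a, siKat6b and siComb, whose composition the labels do not give. p300, Kat6a and Kat6b are histone acetyltransferases. The study's title concerns the microRNA miR-203, which none of these 9 groups manipulated by label.

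Methylation of cytosine in CpG dinucleotides is copied to the new strand after replication by Dnmt1, which Uhrf1 guides to half-methylated sites. New methylation is set by Dnmt3a and Dnmt3b, and Dnmt3l, which has no catalytic activity of its own, stimulates both. Tet1, Tet2 and Tet3 oxidise 5-methylcytosine, and Tdg excises some of the oxidised bases so that repair restores an unmethylated cytosine. During cleavage the mouse genome loses most of its methylation, largely through dilution at replication, and is methylated anew after implantation.

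Upstream sequences are printed for Tet2, Tet1 and Dnmt3l because these 3 genes fell with SAHA, TSA and A485 and in siP300 and siComb, while their start sites differ in CpG content. They were chosen after their values were seen. The sequences are the 250 bases before the RefSeq start site in GRCm38.p6, on the strand of the gene, with each CpG in capitals. All 3 windows lie inside the gene positions given below, so these start sites differ from the annotated 5' ends of the genes. Which start site the embryos used was not tested.
Tet2, chr3:133544391-133544640 (minus strand): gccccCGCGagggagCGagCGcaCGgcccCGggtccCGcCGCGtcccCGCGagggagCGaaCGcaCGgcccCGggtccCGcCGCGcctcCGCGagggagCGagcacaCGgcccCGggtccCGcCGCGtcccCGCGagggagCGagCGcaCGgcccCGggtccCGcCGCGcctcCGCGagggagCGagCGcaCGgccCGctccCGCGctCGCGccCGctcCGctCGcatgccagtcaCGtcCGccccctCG
Tet1, chr10:62887325-62887574 (minus strand): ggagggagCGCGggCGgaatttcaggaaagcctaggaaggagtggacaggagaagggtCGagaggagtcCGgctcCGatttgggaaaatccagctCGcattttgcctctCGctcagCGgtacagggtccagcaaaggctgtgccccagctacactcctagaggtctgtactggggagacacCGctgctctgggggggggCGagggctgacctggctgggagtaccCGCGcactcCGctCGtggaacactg
Dnmt3l, chr10:78042037-78042286 (plus strand, first of 3 start sites): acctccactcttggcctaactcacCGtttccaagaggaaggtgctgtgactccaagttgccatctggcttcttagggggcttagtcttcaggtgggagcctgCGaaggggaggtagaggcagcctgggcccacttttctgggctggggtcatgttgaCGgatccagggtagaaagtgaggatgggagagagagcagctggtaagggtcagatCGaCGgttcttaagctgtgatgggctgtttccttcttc
The Tet2 window held 51 CpG dinucleotides, more than 99.9% of the 32851 windows of this length in the table, whose median was 6. The Tet1 window held 15 and the first Dnmt3l window 5, and the other Dnmt3l start sites held 4 and 3. The 2 most upstream Dnmt3a start sites held 38 and 40, Dnmt3b 21, Tdg 19 and Tet3 17. The letters GGGCGG, searched on both strands, were found once in the Tet2 window, once in the Tet1 window and in none of the bases shown for Dnmt3l. The second Dnmt3l start site, not shown, held 2 matches and the third 0, and 32.7% of all windows hold these letters.

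Because the study's title names miR-203, its mature sequence is shown with bases 2 to 8, the seed, in capitals, with the first match to that seed in the longest annotated 3' UTR (GENCODE vM21, GRCm38) of the 4 genes that hold one, in capitals.
mmu-miR-203-3p, chr12:112130927-112130948 (plus strand): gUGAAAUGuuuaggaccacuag
Dnmt3a, chr12:3913187-3913215 (plus strand): gtaataatgtaCATTTCAcagtctggttc
Dnmt3b, chr2:153687434-153687462 (plus strand): taagaaagctgCATTTCAgaaatgccatc
Tet1, chr10:62812373-62812401 (minus strand): tttgtttcgccCATTTCAactccgacgta
Tet2, chr3:133466018-133466046 (minus strand): taaaatgtggaCATTTCAaaggcctctgg
Tet1 held 2 matches to CATTTCA, and Dnmt3a, Dnmt3b and Tet2 held 1 each. The other 5 genes held 0. These letters occur in 16.1% of 21020 annotated 3' UTRs, whose median length was 961 bases, against 7962 bases for Tet1 and 6696 for Dnmt3a, so a match in so long a stretch is a description only.

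Library totals ran from 7557591 to 11988857 counts. The pools expressed 10 of 11 morula markers in Vehicle and siControl, and Sox2 was listed at 0 in every group and Cdx2 at 0 with A485. Mitochondrially encoded genes took 1.0 to 1.2% of counts in Vehicle, 1.6 to 2.2% in SAHA, 2.4 to 2.6% in A485 and 2.5 to 3.6% in TSA. That share was 1.9 to 2.5% in siControl, 1.8 to 2.4% in siKat6a and siKat6b, and 4.9 to 7.0% in siP300 and siComb. MERVL-int, an endogenous retrovirus of the 2-cell stage, held 2181 to 4569 CPM (counts relative to the size of the library) with SAHA and 8393 to 9742 with TSA, against 12.5, 14.3 and 245 in Vehicle and 5.55 to 16.2 with A485. Vehicle 3 was thus apart from its group. Of the siRNA libraries, siP300 2, siKat6b 1, siKat6b 3 and siComb 2 stood apart at 899 to 990.2 CPM, against 20.4 to 158 in the others. Of the siRNA targets, Kat6a was at 10.4 to 13.3 CPM in siKat6a against 15.8 to 18.1 in siControl, and Kat6b at 68.3 to 78.8 in siKat6b against 100 to 115. Ep300, which encodes p300, was at 16.6, 11.4 and 27.7 CPM in the libraries labelled siP300 against 22.7 to 28.9 in siControl, so the library labelled siP300 3 lay within the control range. In siComb, Ep300 was at 23.0, 14.5 and 28.3 CPM, with siComb 1 and 3 inside the control range. Kat6a, at 9.38 to 11.2 CPM, and Kat6b, at 30.8 to 75.0, were below every siControl library in siComb. In bulk pools, fewer cells that express a gene and less of its RNA per cell cannot be told apart.

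Levels were compared between genes per length, as CPM (scaled by TMM over all 27 libraries) per kilobase of annotated exon. In Vehicle, Dnmt3l was highest at 18.4 ± 1.42 CPM per kb (mean ± SD, n = 3), followed by Dnmt3b at 14.5 ± 2.19, and the libraries of these 2 genes overlapped. Uhrf1 followed at 11.1 ± 1.22, Tet2 at 7.98 ± 0.154, Tdg at 7.38 ± 2.09 and Tet1 at 6.28 ± 0.921, with Tet2, Tdg and Tet1 overlapping as neighbours. Dnmt1, at 3.06 ± 0.439, and Dnmt3a, at 2.36 ± 0.394, also overlapped, and Tet3 was lowest at 0.328 ± 0.0563. In siControl Tdg alone changed its place in the order, passing below Tet1 and Dnmt1 to 2.08 ± 0.366 CPM per kb, where it overlapped Dnmt3a at 2.08 ± 0.137. Dnmt3l was again first, at 41.7 ± 3.89 CPM per kb, and here apart from Dnmt3b at 12.1 ± 0.681. Dnmt3l thus led in both controls, and it also led in siP300, siKat6a, siKat6b and siComb, while Dnmt3b led in TSA and, overlapping Uhrf1, in SAHA, and Uhrf1 led in A485, where it overlapped Tdg.

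**Figure D1:**
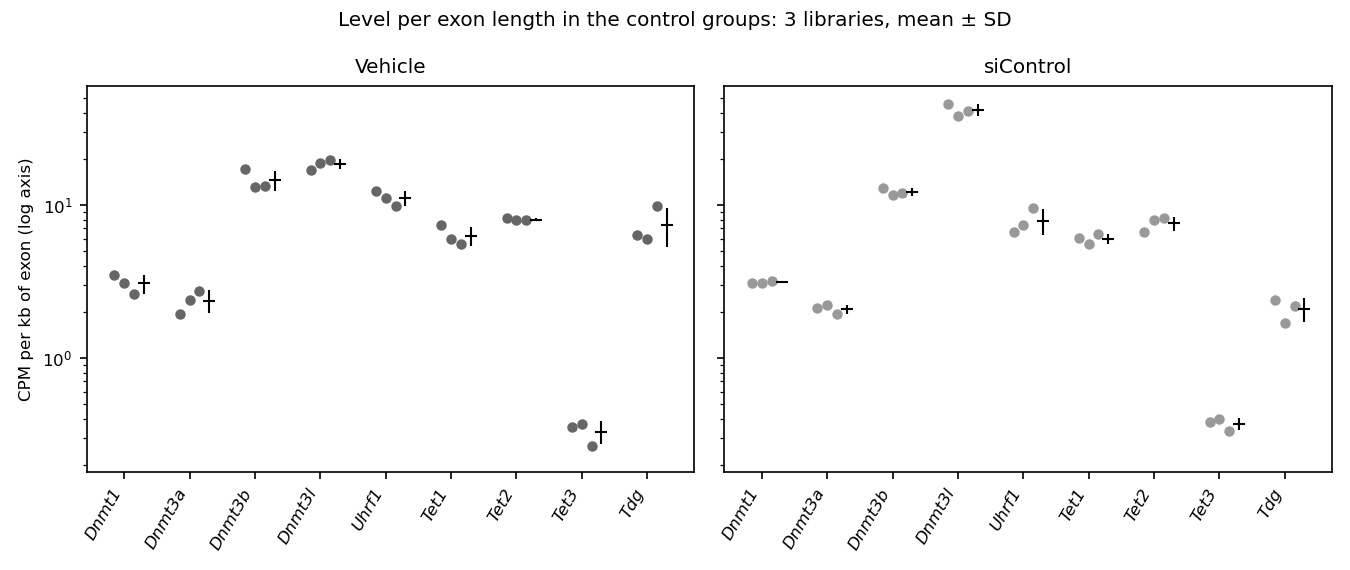
Level per length (CPM per kb of exon, log axis) of the 9 genes in the 2 control groups, one point per library, with a horizontal tick at the mean of 3 libraries and a vertical bar for its SD. Dnmt3l is highest in both controls (18.4 in Vehicle and 41.7 in siControl) and Tet3 lowest (0.328 and 0.369).

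Each treated group was set against its control with edgeR's quasi-likelihood test over all genes, with Benjamini-Hochberg adjustment and a threshold of 0.05. With SAHA, 5 of the 9 genes fell and 0 rose, where 34.2% of 18297 genes tested passed, 14.0% lower and 20.2% higher. With TSA, 6 fell and 0 rose, against 58.1% of genes passing, 26.6% lower and 31.6% higher. With A485, 4 fell and 1 rose, against 45.5% passing, 24.2% lower and 21.4% higher. In siP300, 6 fell and 1 rose, against 35.4% of 19180 genes passing, 15.7% lower and 19.7% higher. In siComb, 4 fell and 1 rose, against 36.7% passing, 17.1% lower and 19.6% higher. The groups compared did not overlap for 6 of the 9 genes with SAHA, 6 with TSA, 5 with A485, 7 in siP300 and 8 in siComb, beside 53.8, 68.3, 52.5, 48.3 and 51.8% of all genes. The median log2 fold change of the 9 genes was -1.31 with SAHA, -2.20 with TSA, 0.10 with A485, -0.94 in siP300 and -0.50 in siComb, beside 0.06, 0.08, -0.06, 0.12 and 0.09 over all genes tested. Tet1, Tet2 and Dnmt3l fell in all 5 of these comparisons. SAHA, TSA and A485 share the Vehicle libraries, and siP300 and siComb share those of siControl.

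In siKat6a and in siKat6b, 0 of the 9 genes passed by edgeR, by DESeq2 or by limma-voom. At an unadjusted p under 0.05 the counts were 0 genes in siKat6a and 1 in siKat6b, which was Dnmt3b. Over all genes 0 passed in siKat6a, with 410 at an unadjusted p under 0.05, 1 by DESeq2 and 0 by limma-voom. In siKat6b 4 genes passed, 0.0209% of those tested, with 0.0104% higher and 0.0104% lower, and 2002 were at an unadjusted p under 0.05. DESeq2 called 237 there and limma-voom 10, and edgeR called 160 without siKat6b 2.

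**Figure D2:**
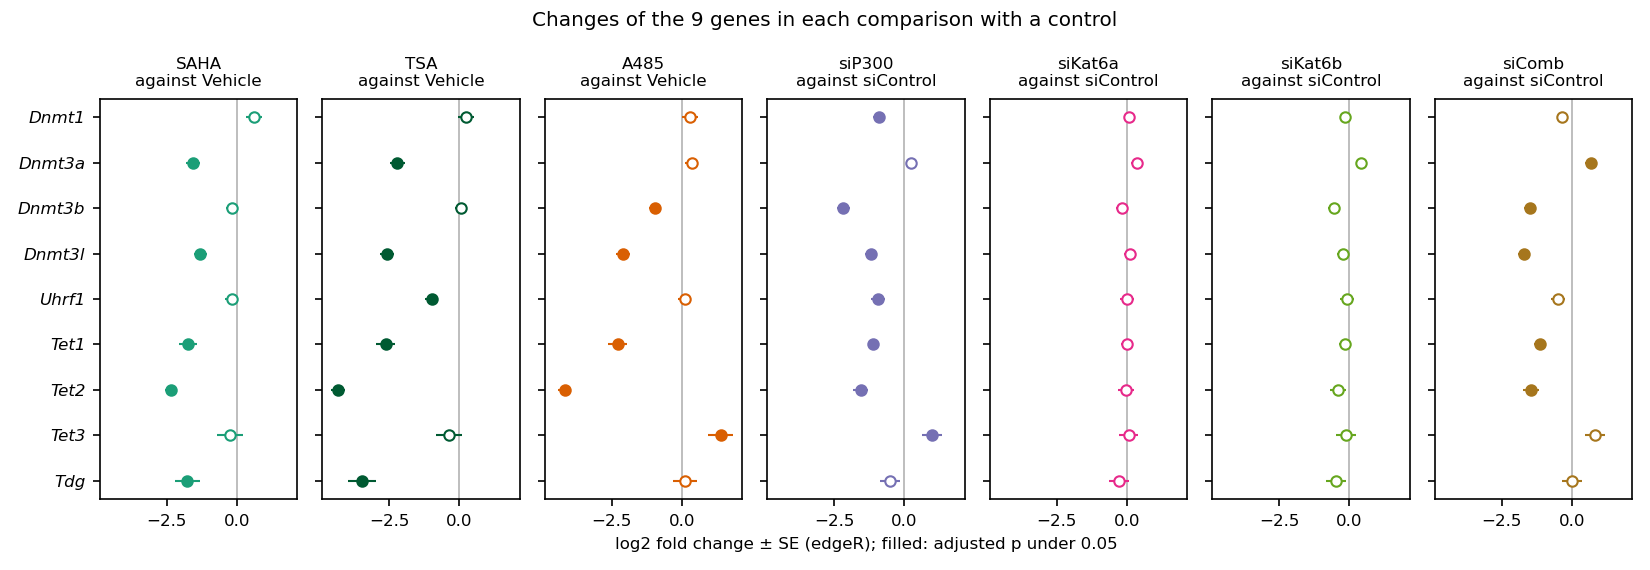
Log2 fold change of each of the 9 genes in the 7 comparisons with a control, with the standard error as a horizontal bar. Filled points passed an adjusted p of 0.05 (edgeR). Tet2 shows the lowest values, down to -4.31 with TSA, and the siKat6a and siKat6b points lie within 0.54 of 0.

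The maintenance pair passed in few comparisons, Dnmt1 in 1 and Uhrf1 in 2 of the 7 with a control. Dnmt1, on the minus strand at chr9:20907209-20959888, stood at 25.7, 22.7 and 19.3 CPM in Vehicle and at 22.8, 22.8 and 23.6 in siControl. In siP300 it was at 12.1, 13.0 and 11.5 CPM, below every siControl library. The log2 fold change there was -0.91 ± 0.19 (SE; adjusted p = 0.0017, edgeR), and -0.59 when scaled by library size alone. In siComb it was at 15.2, 19.7 and 17.8 CPM, also below every siControl library, with a log2 fold change of -0.36 ± 0.19 that did not pass (adjusted p = 0.149, edgeR). With SAHA all 3 libraries (38.0, 35.0 and 33.1 CPM) lay above Vehicle, but the log2 fold change of 0.60 ± 0.28 did not pass (adjusted p = 0.117, edgeR; 0.0215 by limma-voom and 0.0161 in a fit of just the 2 groups). TSA (20.9 to 32.6 CPM) and A485 (20.5 to 43.7 CPM) overlapped Vehicle.

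Uhrf1, on the plus strand at chr17:56303321-56323486, was at 52.2, 47.1 and 41.9 CPM in Vehicle. With TSA it was at 23.8, 27.9 and 17.9 CPM, and the groups did not overlap. Its log2 fold change was -0.99 ± 0.24 (adjusted p = 0.00267, edgeR). Neither SAHA (37.9 to 49.7 CPM) nor A485 (40.9 to 69.7 CPM) was separate from Vehicle. In siControl Uhrf1 was at 28.3, 31.6 and 40.5 CPM and in siP300 at 18.1, 18.5 and 15.5, with a log2 fold change of -0.94 ± 0.25 (adjusted p = 0.00794, edgeR). This call was lost when scaled by library size alone, with a log2 fold change of -0.62 (adjusted p = 0.0722). In siComb one library, siComb 2, was low at 14.8 CPM beside 28.2 and 25.5, and the change did not pass (-0.50 ± 0.25, adjusted p = 0.116, edgeR).

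The de novo enzymes Dnmt3a and Dnmt3b both passed in siComb, with opposite signs, and otherwise passed in different comparisons. No test of the difference between the 2 genes was made. Dnmt3a, on the plus strand at chr12:3806007-3914443, was at 32.4, 39.8 and 45.4 CPM in Vehicle. With SAHA it was at 12.9, 14.4 and 13.4 CPM, and with TSA at 5.01, 9.86 and 9.91. Every library of both groups lay below every Vehicle library, with log2 fold changes of -1.57 ± 0.26 (adjusted p = 0.00035, edgeR) and -2.20 ± 0.27 (adjusted p = 9.15e-06, edgeR). A485, at 58.8, 54.6 and 39.9 CPM, overlapped Vehicle, with a log2 fold change of 0.34 ± 0.24 (adjusted p = 0.268, edgeR). In siControl Dnmt3a was at 35.0, 36.6 and 32.1 CPM and in siComb at 52.3, 52.7 and 56.2. It rose by 0.68 ± 0.20 on the log2 scale in siComb (adjusted p = 0.0129, edgeR), a call lost without siControl 3 (adjusted p = 0.0548). In siP300 it was at 51.5, 31.5 and 38.1 CPM, overlapping siControl (0.23 ± 0.20, adjusted p = 0.37, edgeR). Its exons share 133 bases with the antisense gene Dnmt3aos, which held 0 to 2 counts per library.

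Dnmt3b, on the plus strand at chr2:153649450-153687730, did not pass with SAHA or TSA and fell with A485, in siP300 and in siComb. It was at 86.8, 67.2 and 67.8 CPM in Vehicle, at 72.1, 72.3 and 58.2 with SAHA and at 66.5, 81.3 and 75.5 with TSA. These groups overlapped, with log2 fold changes of -0.18 ± 0.20 (adjusted p = 0.522, edgeR) and 0.04 ± 0.20 (adjusted p = 0.867, edgeR). With A485 it was at 47.5, 40.4 and 28.7 CPM, below Vehicle in every library, and fell by 0.97 ± 0.20 on the log2 scale (adjusted p = 0.00126, edgeR). The siControl libraries held 65.7, 59.0 and 60.6 CPM, those of siP300 17.4, 8.24 and 15.1, and those of siComb 21.0, 21.8 and 21.4. Both treated groups lay below every control library. The log2 fold changes were -2.17 ± 0.22 in siP300 (adjusted p = 4.96e-06, edgeR), -1.93 without the 4 libraries high in MERVL-int, and -1.49 ± 0.22 in siComb (adjusted p = 7.22e-05, edgeR). In siKat6b Dnmt3b was at 41.9, 45.2 and 41.5 CPM, also below every siControl library, but the change of -0.54 ± 0.21 did not pass (adjusted p = 0.361, edgeR). Among the 9 genes 3 did not overlap siControl in siKat6b, where 17.1% of all genes did not, and 1 in siKat6a, where 9.92% did not.

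Dnmt3l, on the plus strand at chr10:78041947-78063622, fell in both families. In Vehicle it was at 50.3, 56.4 and 58.4 CPM, with SAHA at 24.4, 24.6 and 19.5, with A485 at 10.4, 16.8 and 12.4, and with TSA at 7.16, 8.49 and 11.3. Every treated library was below every Vehicle library. Log2 fold changes were -1.31 ± 0.23 with SAHA (adjusted p = 0.000611, edgeR), -2.10 ± 0.24 with A485 (adjusted p = 7.49e-06, edgeR) and -2.58 ± 0.24 with TSA (adjusted p = 1.08e-06, edgeR). In siControl it was at 137, 114 and 123 CPM, in siP300 at 72.2, 39.2 and 50.2 and in siComb at 29.7, 44.8 and 37.0, again without overlap. The log2 fold changes were -1.20 ± 0.21 (adjusted p = 0.000425, edgeR) and -1.71 ± 0.21 (adjusted p = 1.68e-05, edgeR). Its exons share 67 bases with Aire on the opposite strand, which held 2 to 60 counts per library, and whether counting used strand is not given in the sources used here.

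Tet2, on the minus strand at chr3:133463679-133545139, had the lowest log2 fold change of the 9 genes with each of the 3 inhibitors. It was at 138, 133 and 133 CPM in Vehicle, at 31.3, 26.5 and 24.3 with SAHA, at 9.46, 4.66 and 5.76 with TSA, and at 7.28, 7.80 and 7.87 with A485. Every treated library lay below every Vehicle library. The log2 fold changes were -2.34 ± 0.22 with SAHA (adjusted p = 3.2e-06, edgeR), -4.31 ± 0.25 with TSA (adjusted p = 1.62e-08, edgeR) and -4.17 ± 0.24 with A485 (adjusted p = 1.47e-08, edgeR). In siControl Tet2 was at 112, 133 and 137 CPM, in siP300 at 61.3, 21.8 and 45.8 and in siComb at 42.0, 34.7 and 59.3. Here too the groups did not overlap, with log2 fold changes of -1.56 ± 0.28 (adjusted p = 0.000526, edgeR) and -1.45 ± 0.28 (adjusted p = 0.000773, edgeR). siP300 2, one of the libraries high in MERVL-int, was the lowest of its group, and without the 4 such libraries the siP300 value was -1.26 (adjusted p = 0.000139). Tet2 exons share 43 bases with the antisense gene Gm42567, which held 0 to 28 counts per library, beside 34 to 84 Tet2 counts with TSA and A485.

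Tet1, on the minus strand at chr10:62804570-62908996, fell less steeply. It was at 113, 92.0 and 86.1 CPM in Vehicle, at 43.9, 21.0 and 25.0 with SAHA, at 22.1, 13.4 and 10.8 with TSA and at 26.8, 14.8 and 19.5 with A485. Every treated library lay below Vehicle, with log2 fold changes of -1.74 ± 0.32 (adjusted p = 0.000859, edgeR), -2.62 ± 0.33 (adjusted p = 1.46e-05, edgeR) and -2.29 ± 0.32 (adjusted p = 5.97e-05, edgeR). In siControl it was at 93.7, 85.6 and 99.5 CPM, in siP300 at 41.0, 39.2 and 47.7 and in siComb at 30.9, 36.9 and 54.4. The log2 fold changes were -1.12 ± 0.20 (adjusted p = 0.000459, edgeR) and -1.15 ± 0.20 (adjusted p = 0.000301, edgeR), and the groups did not overlap.

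Tet3, on the minus strand at chr6:83362373-83459084 and the member of the family stored in the oocyte, was at a low level. Of the comparisons with a control it passed with A485 and in siP300 alone, as higher. It was at 5.85, 6.16 and 4.40 CPM in Vehicle and at 24.6, 11.2 and 8.06 with A485. The A485 libraries all lay above Vehicle, and the log2 fold change was 1.38 ± 0.44 (adjusted p = 0.0208, edgeR). A485 1 was the highest, and without it the value was 0.86 (adjusted p = 0.113), and without Vehicle 3 it was 1.21 (adjusted p = 0.0722). SAHA (4.04 to 5.47 CPM) and TSA (2.41 to 6.88 CPM) overlapped Vehicle, with log2 fold changes of -0.24 ± 0.45 and -0.36 ± 0.46 that did not pass. In siControl Tet3 was at 6.31, 6.60 and 5.58 CPM, in siP300 at 10.8, 7.95 and 17.5 and in siComb at 15.1, 7.69 and 8.72. Both groups lay above siControl. The siP300 change of 0.97 ± 0.35 passed narrowly (adjusted p = 0.0378, edgeR) and was lost when any siControl library, siP300 1 or siP300 3 was left out (adjusted p 0.0514 to 0.216, with a log2 fold change of 0.62 without siP300 3). The siComb change of 0.81 ± 0.35 did not pass (adjusted p = 0.0761, edgeR) and did pass without siComb 2 (adjusted p = 0.0498).

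Tdg, on the plus strand at chr10:82629828-82650799, fell with the deacetylase inhibitors. It was at 34.3, 32.1 and 52.6 CPM in Vehicle, at 14.9, 11.7 and 9.36 with SAHA and at 2.29, 2.19 and 5.89 with TSA, without overlap. The log2 fold changes were -1.76 ± 0.45 (adjusted p = 0.00818, edgeR) and -3.47 ± 0.51 (adjusted p = 5.37e-05, edgeR). With A485 its libraries spread widely, at 15.8, 50.2 and 65.8 CPM, around the Vehicle level. In siP300 (5.29 to 10.3 CPM) and siComb (6.84 to 14.1 CPM) it overlapped siControl (9.01 to 12.8 CPM). An annotated pseudogene copy, Tdg-ps2, moved the same way: it held 8 to 50 counts in Vehicle, 0 to 2 with SAHA, 0 with TSA and 5 to 70 with A485, beside 334 to 502, 77 to 120, 16 to 44 and 182 to 702 Tdg counts. How far reads were split between the copies was not tested, so the Tdg values are reported as uncertain. Its exons also share 367 bases with Glt8d2 on the opposite strand, which held 0 to 20 counts per library.

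**Figure D3:**
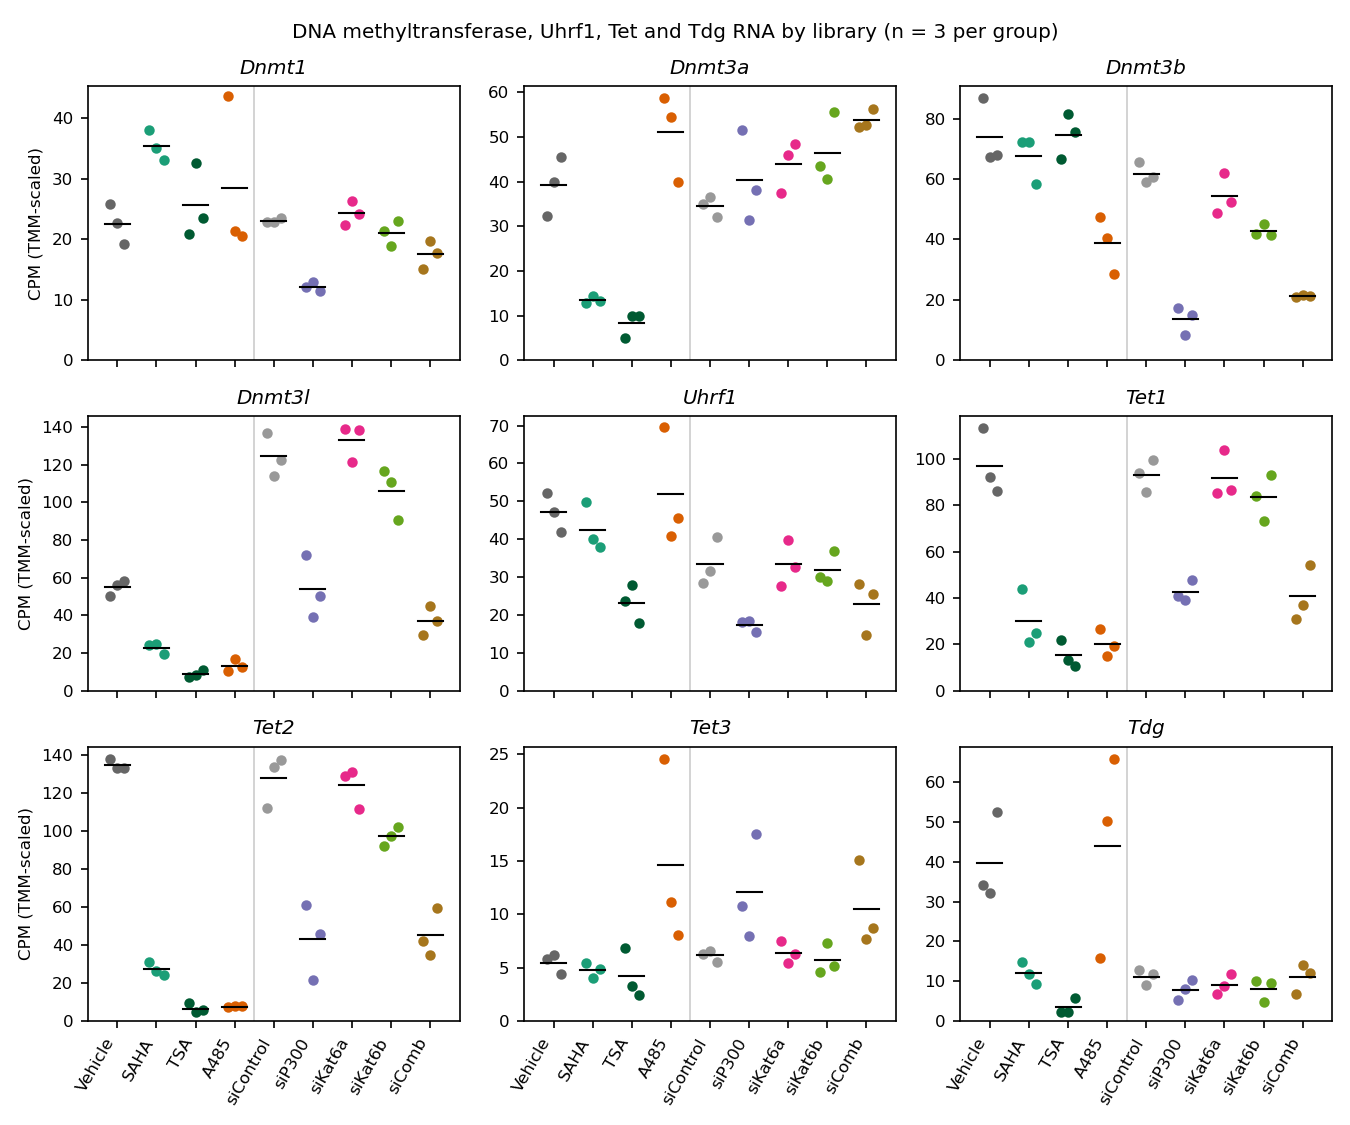
Level (CPM scaled by TMM, linear axis from 0) of each of the 9 genes in all 27 libraries, one panel per gene and one point per library, with a horizontal bar at the mean of each group of 3. Tet2 runs from 138 CPM in Vehicle to 4.66 with TSA, while Dnmt1 stays between 11.5 and 43.7 CPM over all groups.

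Other values moved with these changes. The 2-cell stage genes include the Zscan4 family and are expressed at genome activation. Of these, 9 of 9 tested rose with SAHA and with TSA, and 8 of 9 fell with A485. Over all genes 20.2% were higher with SAHA, 31.6% higher with TSA and 24.2% lower with A485. Duxf3 was at 0 in Vehicle and with A485, so it passed the filter through the SAHA and TSA libraries alone. The counts that rose are thus a description only. In the siRNA family 4 of 7 tested rose in siP300 and 7 of 7 in siComb, beside 19.7 and 19.6% of all genes higher. In siKat6a and siKat6b 0 passed. Usp17lc was at 0.263 CPM and Tcstv3 at 0.392 in siControl, so these genes passed the filter through libraries of other groups. The siRNA counts that rose are therefore a description only as well. The median log2 fold change of the list was -0.43 in siKat6a but 5.27 in siKat6b, near the 5.53 in siP300. The 9 genes of that list summed to 3897 to 7893 CPM with SAHA and 14399 to 19691 with TSA. Their sums were 1.75 to 419 CPM in Vehicle, where single libraries differed widely, and 1.04 to 2.80 with A485. The lowest Vehicle sum lay inside the A485 range, so the summed fall with A485 was not seen against every Vehicle library. Zscan4d was at 49.2 ± 84.2 CPM (mean ± SD) in Vehicle and 0.574 ± 0.348 with A485. The same genes summed to 4.48 to 5.20 CPM in siControl, 3.26 to 6.84 in siKat6a and 4.68 to 144.8 in siKat6b. In siP300 the sum was 9.21 to 249.8 CPM and in siComb 13.4 to 645. The ranges in siKat6b, siP300 and siComb show that single libraries differed widely. The morula markers fell too: 8 of 10 tested were lower with SAHA, 10 with TSA, 8 with A485, 8 in siP300 and 8 in siComb. Over all genes 14.0, 26.6, 24.2, 15.7 and 17.1% were lower in the same order. In siKat6a and siKat6b 0 of these markers changed. Summed, the markers ran from 3248 to 4048 CPM in Vehicle, 1364 to 1396 with SAHA, 665 to 855 with TSA and 2097 to 3229 with A485. Their sums were 1710 to 2133 CPM in siControl, 1054 to 1274 in siP300 and 1001 to 1247 in siComb. The 7 blood and immune markers summed to 20.9 to 22.5 CPM in siControl. Their sums were 81.2 to 168 CPM in siP300 and 87.7 to 136 in siComb. Hba-a1 was at 68.3 CPM in siP300 and 44.9 in siComb against 0.864 in siControl. Cd68 was at 35.6 and 55.1 CPM against 3.58. Of 4 tested, 2 rose and 0 fell in siP300, and 2 rose and 1 fell in siComb. Over all genes 19.7 and 19.6% were higher and 15.7 and 17.1% lower. Because Hba-a1 was so low in siControl, the counts that rose are a description only. Hbb-bs and Tyrobp were at 0 in both treated groups, and Ptprc was at 0 in siP300. With the inhibitors the same markers summed to 41.1 to 67.0 CPM with TSA, 32.8 to 66.2 with A485 and 22.9 to 25.1 with SAHA, against 19.5 to 24.8 in Vehicle, with Hbb-bs at 0 in all 4 groups and Tyrobp at 0 in all but TSA. The 8 cumulus and granulosa markers summed to 6.91 to 13.9 CPM in siP300 and 5.93 to 9.29 in siComb against 0.962 to 1.43 in siControl. They summed to 1.70 to 5.45 CPM with SAHA, 2.19 to 3.75 with TSA and 0.749 to 2.40 with A485, against 0.838 to 1.75 in Vehicle. The 7 oviduct and stromal markers had lower sums with the inhibitors, at 3.03 to 6.57 CPM with SAHA, 5.63 to 7.31 with TSA and 0 to 1.87 with A485. In Vehicle the sum was 12.2 to 19.4 CPM, with Col1a2, Col3a1, Dcn and Lum at 0. Single markers did not all fall. Of 2 tested, 0 rose and 1 fell with SAHA and with A485, and 1 rose and 1 fell with TSA. Their median log2 fold change was 0.51 with SAHA, 1.35 with TSA and -1.60 with A485. The sums of this list overlapped in siControl (8.45 to 14.7), siP300 (4.56 to 10.9) and siComb (6.94 to 11.6). The share of mitochondrial counts was higher in the same groups, as given above. The part of these differences in the changes of the 9 genes was not tested. Scaling also bears on the siRNA groups: with library size alone the median log2 fold change of all genes was 0.45 in place of 0.12 in siP300 and 0.36 in place of 0.09 in siComb. The share of calls that were higher then rose from 55.8 to 77.0% in siP300 and from 53.5 to 70.4% in siComb, and no called direction among the 9 genes changed.

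Ratios of deposited counts within a library do not depend on this scaling. Dnmt3a to Dnmt3b had a median of 0.593 in Vehicle (0.373 to 0.67 over 3 libraries), 0.2 with SAHA (0.179 to 0.23), 0.121 with TSA (0.0754 to 0.131) and 1.35 with A485 (1.24 to 1.39). None of these 4 ranges overlapped. The same ratio was 0.533 in siControl (0.53 to 0.62), 2.96 in siP300 (2.52 to 3.82), 2.49 in siComb (2.42 to 2.63), 0.77 in siKat6a (0.74 to 0.925) and 1.04 in siKat6b (0.897 to 1.34). All 4 groups with a targeted siRNA thus lay above siControl, and siKat6a and siKat6b did so without a call for either gene. Tet3 to Tet2 had a median of 0.0425 in Vehicle, 0.175 with SAHA, 0.706 with TSA and 1.44 with A485. It was 0.0495 in siControl, 0.364 in siP300 and 0.222 in siComb, and each of these ranges lay apart from its control. In A485 all 3 libraries held more Tet3 than Tet2 counts (1.02 to 3.38). Uhrf1 to Dnmt1 was 2.07 in Vehicle (2.03 to 2.17), 1.15 with SAHA (1.14 to 1.31) and 0.857 with TSA (0.761 to 1.14), while A485 (1.6 to 2.22) overlapped Vehicle. These ratios were described without a test.

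**Figure D4:**
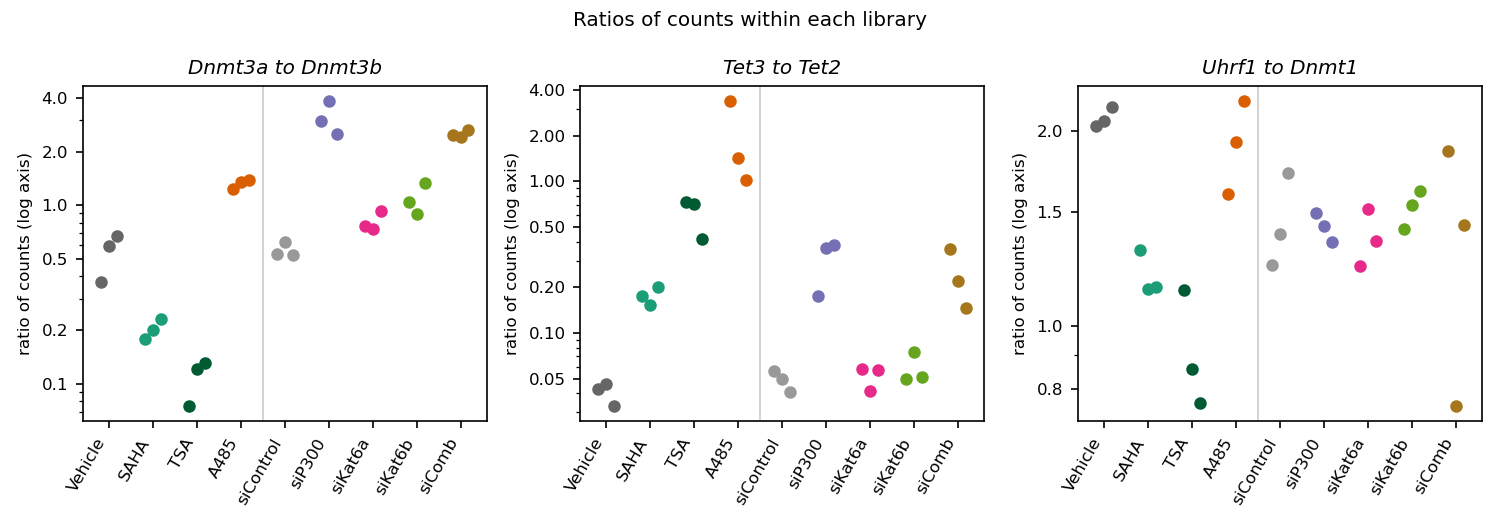
Ratio of deposited counts within each library (log axis) for Dnmt3a to Dnmt3b, Tet3 to Tet2 and Uhrf1 to Dnmt1, one point per library in each of the 9 groups. Dnmt3a to Dnmt3b is lowest with TSA (median 0.121) and highest in siP300 (2.96), and Tet3 to Tet2 is highest with A485 (1.44).

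siComb was also set against each single injection. Against siP300, 0 of the 9 genes passed by edgeR, beside 0.798% of all genes (0.516% higher and 0.282% lower), with 4 at an unadjusted p under 0.05, 0 by limma-voom and 1 by DESeq2 (Dnmt3b, adjusted p = 0.0447). The largest differences were 0.68 ± 0.22 for Dnmt3b and 0.56 ± 0.19 for Dnmt1, both higher in siComb in every library, followed by 0.52 ± 0.35 for Tdg and -0.51 ± 0.21 for Dnmt3l, whose groups overlapped. The 2 groups did not overlap for 3 of the 9 genes, beside 15.3% of all genes. Against siKat6a, 4 genes were lower in siComb and 0 higher, beside 36.0% of all genes passing (16.8% lower and 19.2% higher): Dnmt3b (-1.31 ± 0.22), Dnmt3l (-1.81 ± 0.21), Tet1 (-1.14 ± 0.20) and Tet2 (-1.41 ± 0.28). Against siKat6b the same 4 genes were lower, with Dnmt3b at -0.95 ± 0.22, Dnmt3l at -1.46 ± 0.21, Tet1 at -0.98 ± 0.20 and Tet2 at -1.04 ± 0.28, and Tet3 was higher (0.94 ± 0.35, adjusted p = 0.0492, edgeR), beside 31.6% of all genes passing (15.1% lower and 16.4% higher). Groups did not overlap for 7 of the 9 genes against siKat6a and 6 against siKat6b, beside 51.1 and 46.0% of all genes. Without the 4 libraries high in MERVL-int, 2 of which are siKat6b, siKat6b 2 is the only library left in its group. In the siKat6b comparison Tet1 was then at -0.72 and Tet3 at 0.76. The Tet3 call was lost without siKat6b 1 or 3, or siComb 1 or 3.

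The control groups differed from each other in 2 of the 9 genes, beside 17.6% of 20744 genes tested (8.25% higher and 9.36% lower), and did not overlap for 4, beside 41.4%. Dnmt3l was higher in siControl than in Vehicle (137, 114 and 123 CPM against 50.3, 56.4 and 58.4; 1.12 ± 0.21, adjusted p = 0.000633, edgeR). Tdg was lower (12.8, 9.01 and 11.7 CPM against 34.3, 32.1 and 52.6; -1.88 ± 0.43, adjusted p = 0.00348, edgeR). Injection, culture and any difference between the experiments cannot be told apart here. Tet1 (-0.12 ± 0.26) and Tet2 (-0.13 ± 0.26) overlapped between the controls.

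Partners of the 9 genes were counted from fixed lists, whose counts stand beside 34.2% of all genes passing with SAHA, 58.1% with TSA, 45.5% with A485, 35.4% in siP300 and 36.7% in siComb. No list was tested against these shares. Of 8 maintenance partners, 1 rose with SAHA, 3 rose and 2 fell with TSA, 3 rose and 1 fell with A485, 1 rose and 4 fell in siP300, and 3 fell in siComb. The 5 of 8 with TSA, 4 of 8 with A485 and 3 of 8 in siComb are near the shares over all genes. The median log2 fold change of the list was 0.27, 0.11, 0.25, -0.37 and 0.03 in the same order. Dppa3, which keeps Uhrf1 out of the nucleus in the oocyte and protects methylation in the zygote, showed the widest range. It was at 7119.7 ± 899 CPM in Vehicle and 139.7 ± 55 with A485, a log2 fold change of -5.71 ± 0.32 (adjusted p = 1.35e-08, edgeR). It rose with TSA (0.73 ± 0.26) and fell in siP300 (-1.28 ± 0.25) and siComb (-2.12 ± 0.25). Uhrf2, the paralog of Uhrf1, rose with A485 (35.3 against 15.0 CPM, 1.20 ± 0.22), and Cdca7l, a relative of the Hells partner Cdca7, rose with SAHA (3.55 ± 0.49) and TSA (4.14 ± 0.50). Lig1, the replicative DNA ligase, fell in siP300 (-0.89 ± 0.18) and siComb (-1.03 ± 0.18).

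Of 17 TET partners and base excision repair genes, 15 were tested with the inhibitors: 1 rose and 4 fell with SAHA, 2 rose and 8 fell with TSA, and 4 rose and 5 fell with A485. All 17 were tested in the siRNA family, where 1 rose and 6 fell in siP300 and 1 rose and 2 fell in siComb. Their median log2 fold change was -0.59 with SAHA, -0.93 with TSA, -0.51 with A485, -0.14 in siP300 and -0.21 in siComb. Apex1, the endonuclease that follows Tdg in repair, fell with TSA (-1.65 ± 0.16), with A485 (-2.04 ± 0.16), in siP300 (-1.32 ± 0.31) and in siComb (-1.55 ± 0.31). Ung, the uracil glycosylase, fell with A485 from 82.3 to 10.5 CPM (-3.01 ± 0.27). Gadd45b, linked to active demethylation, rose with SAHA (2.08 ± 0.26) and TSA (3.33 ± 0.27). Of 10 methyl-CpG readers, 2 rose and 3 fell with SAHA, 2 rose and 4 fell with TSA, 5 rose and 0 fell with A485, 4 rose and 0 fell in siP300, and 3 rose and 0 fell in siComb, with medians of -0.46, -0.68, 0.73, 0.58 and 0.64. Mbd5 rose in all 5, by 2.46 ± 0.27 with SAHA, 3.60 ± 0.28 with TSA, 0.84 ± 0.26 with A485, 1.38 ± 0.26 in siP300 and 0.94 ± 0.26 in siComb.

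Of 11 imprint and heterochromatin factors, 4 fell with SAHA, 1 rose and 5 fell with TSA, 4 rose and 3 fell with A485, and 1 rose and 3 fell in both siP300 and siComb, with median log2 fold changes of 0.04, -0.47, -0.12, 0.09 and 0.13. Zfp57, which protects methylation at imprints, fell with SAHA (-1.95 ± 0.39) and in siP300 (-1.65 ± 0.32). Its corepressor Trim28 fell with A485 (-1.38 ± 0.20), in siP300 (-1.09 ± 0.20) and in siComb (-1.13 ± 0.20). Of 9 enzymes and binders of histone marks that guide methylation, 1 rose and 3 fell with SAHA, 3 rose and 5 fell with TSA, 4 rose and 2 fell with A485, and 2 rose and 0 fell in siP300 and in siComb, with medians of -0.42, -0.70, 0.03, 0.08 and 0.25. Nsd1, which methylates lysine 36 of histone H3, fell with SAHA (-1.23 ± 0.17) and TSA (-1.19 ± 0.17), and its relative Nsd2 rose with A485 (2.02 ± 0.27), in siP300 (0.87 ± 0.33, adjusted p = 0.0497, edgeR) and in siComb (1.21 ± 0.33). Kmt2a, which methylates lysine 4 of histone H3, rose in siP300 (1.78 ± 0.32) and siComb (1.92 ± 0.32).

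The substrates of both enzyme classes were covered by further lists. Of 19 methyl donor cycle genes, 2 rose and 4 fell with SAHA, 3 rose and 7 fell with TSA, 5 rose and 10 fell with A485, 2 rose and 8 fell in siP300 and 3 rose and 6 fell in siComb, with median log2 fold changes of -0.12, -0.38, -0.89, -0.45 and -0.41. Bhmt, which makes methionine from homocysteine and betaine, fell with A485 from 1506 to 10.8 CPM (-7.16 ± 0.56) and in siP300 (-1.22 ± 0.19). Folr1, a folate receptor, fell with SAHA (-2.10 ± 0.17), TSA (-2.43 ± 0.17) and A485 (-3.55 ± 0.18). Of 15 genes of the metabolism of 2-oxoglutarate, the cosubstrate of TET enzymes, 0 rose and 9 fell with SAHA, 1 rose and 10 fell with TSA, 1 rose and 4 fell with A485, 2 rose and 8 fell in siP300 and 3 rose and 5 fell in siComb, with medians of -0.60, -0.65, -0.08, -0.67 and -0.13. Got1, the cytosolic aspartate aminotransferase, fell with TSA (-1.37 ± 0.19), A485 (-3.54 ± 0.21), in siP300 (-1.68 ± 0.16) and in siComb (-1.25 ± 0.16).

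Of 15 germline genes that promoter methylation silences in somatic cells, 10 rose and 0 fell with SAHA, 13 rose and 1 fell with TSA, 5 rose and 4 fell with A485, 6 rose and 0 fell in siP300, and 6 rose and 4 fell in siComb, with median log2 fold changes of 1.54, 2.76, 0.00, 0.96 and 0.47. The controls differed in this list as well: 7 of 15 were higher in siControl than in Vehicle and 0 lower, with a median of 1.00, beside 8.25% of all genes higher and 9.36% lower. Sycp1, of the synaptonemal complex, rose with SAHA (2.10 ± 0.21) and TSA (2.76 ± 0.22), and was higher in siControl than in Vehicle by about as much as with SAHA (231.8 against 51.3 CPM, 2.12 ± 0.25). Tex11 rose with SAHA (3.10 ± 0.35), TSA (4.82 ± 0.36), in siP300 (2.85 ± 0.42) and in siComb (3.27 ± 0.43), and Taf7l rose in siP300 (6.61 ± 0.39) and siComb (5.72 ± 0.38). DNA methylation was not measured in these libraries.

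Likeness of pattern was measured as the root-mean-square difference between centred log2 CPM over the 9 group means, among 8289 named genes with a mean of at least 10 CPM. Within the set, Dnmt1 and Uhrf1 were the most alike, at 0.33, followed by Dnmt3l and Tet1 at 0.50, Dnmt1 and Dnmt3b at 0.53, and Dnmt3l and Tet2 at 0.55. The measure is not scaled by range, so genes that move little come out alike more easily. The log2 range over the group means was 1.52 for Dnmt1 and 1.54 for Uhrf1. It was 3.88 for Dnmt3l, 2.69 for Tet1 and 4.37 for Tet2. Tet2 was farthest from Tdg (1.76) and Tet3 (1.75), and Dnmt3a and Dnmt3b stood at 1.48. Over all genes, Tet1 was closest to Sdc4 (0.12) and Fam129a (0.13), Tet2 to Plpp3 (0.30) and Rarb (0.31), and Dnmt3l to Zfp990 (0.21) and Hmga2 (0.22). Dnmt1 was closest to Pkmyt1 (0.14) and Cdk1 (0.15), and Uhrf1 to Ttc4 (0.10) and Mrpl18 (0.12). Dnmt3a was closest to Retreg2 (0.20), Dnmt3b to Hadh (0.30), Tet3 to Dgkd (0.11) and Tdg to Tada1 (0.17).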

How the data were processed

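RNA was measured in 27 libraries of pooled mouse embryos, 3 per group, with groups taken from the sample titles. The authors deposited raw counts per gene. STAR 2.7.11a, featureCounts, Subread 2.0.6, MultiQC and Scanpy 1.8.2 are named, per the submitters' processing notes, as are 2 builds, mm10 and GRCh38, with no role stated. Which annotation release was used, and how strand and pairs were handled, is not given in the sources used here. Among nonzero counts, 83.3 to 85.9% per library were even. The table of the whole series matched the sample files in 27 of 27 libraries. Its 2 MERVL rows stayed in the table but out of tests and library totals, since no source used here tells how they were made.

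Replicates are biological by the design text, and chi-square per degree of freedom between the 27 pairs within groups ran from 8.35 to 48.9, above sampling noise, so no such pair was counted as 1 library. P-values measure the spread between these pools. Same-numbered libraries deviated together (r over 0.1) in 2 of 18 pairs with the inhibitors and 1 of 30 with siRNA, so the numbers were not used to pair libraries.

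Genes were tested with edgeR 4.0.16 (R 4.3.3; quasi-likelihood, TMM, filterByExpr with a minimum count of 10) in 1 fit for the 12 inhibitor libraries (18297 genes) and 1 for the 15 siRNA libraries (19180 genes). siControl against Vehicle used all 27 libraries (20744 genes). The Benjamini-Hochberg adjustment ran over all genes of a comparison. SE is the size of the log2 fold change over the square root of F. CPM of single genes and marker sums is scaled by TMM over all 27 libraries, MERVL-int CPM by the library total. Per-length levels use the union of exons in GENCODE vM21, and positions are GRCm38 from the same annotation. RefSeq windows matched all 9 genes (16 start sites).

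SAHA and TSA were used at different doses and were not tested against each other. The 9 genes and all gene lists were chosen with earlier results of these data known. Named genes besides the 9 were, per list and comparison with a control, up to 2 by adjusted p among those past 0.05 with a mean of at least 10 CPM, with Dppa3 always. Not all of these are written out. The script was tested on simulated data. Alternatives used DESeq2 1.42.0, limma 3.58.1 (voom with sample weights), other scalings, filters and fits, halved counts, and libraries left out.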

Additional observations from a re-analysis of the deposited data

How the results depend on the processing

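Over 11 comparisons and 9 genes, 1746 alternative log2 fold changes were computed: 1660 kept their direction and their side of the threshold, 23 lost a call, 10 gained one and 53 changed sign. Of 684 values for genes called in the reported fit, 0 changed sign.

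Counts of called genes among the 9 moved by over 1.5 times in siComb against siP300 with DESeq2 (1 in place of 0). They also moved in siComb against siKat6b without the 4 libraries high in MERVL-int, where fewer samples were fitted. There siKat6b 2 was the only library left in its group. For the other settings the cause was not tested. The replicate block took the Tet3 call in siP300 (0.96, adjusted p = 0.0577) and in siComb against siKat6b (0.89, adjusted p = 0.0814), and changed no other call among the 9 genes. Same-numbered libraries had r of -0.04 to 0.15 with the inhibitors and -0.35 to 0.36 with siRNA, and 9 of 27 libraries correlated best with their own number.

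Over all alternatives the adjusted p of Tet3 ran from 0.00335 to 0.113 with A485, 0.00999 to 0.216 in siP300 and 0.0273 to 0.384 in siComb. That of Uhrf1 in siP300 ran from 0.00197 to 0.0722, of Dnmt3a in siComb from 0.00166 to 0.0548, of Dnmt1 with SAHA from 0.0161 to 0.254, and of Dnmt3b in siComb against siP300 from 0.0447 to 0.583.

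Sign changes touched values that were not called. With library size alone they were Dnmt3b with TSA (-0.0436), Tet1 (0.0256) and Uhrf1 (0.0421) in siKat6a, Uhrf1 in siKat6b (0.0323) and Dnmt1 in siControl against Vehicle (0.0476). With limma-voom they were Uhrf1 with A485 (-0.0322) and Tet1 (0.0121) and Uhrf1 (0.0508) in siKat6a. Without a filter they were Dnmt3b with TSA (-0.0137) and Dnmt1 in siControl against Vehicle (0.0307). Dnmt1 in that comparison was also 0.0193 with DESeq2 and 0.0195 with DESeq2 size factors, and Dnmt3b with TSA was -0.0217 in the fit of all 27 libraries. With the replicate block they were Uhrf1 in siKat6a (0.0122) and Tdg in siComb (-0.00593). Without the 4 libraries high in MERVL-int they were Tet3 in siKat6b (0.252), Tdg in siComb (-0.169), and Tet2 (-0.00725) and Tet1 (0.013) in siComb against siP300.

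With each library left out in turn, log2 fold changes of uncalled genes that crossed 0 ran as follows. With A485 these were Dnmt1 from -0.0613 to 0.479, Tdg from -0.313 to 0.60 and Uhrf1 from -0.0731 to 0.253, and with TSA Dnmt3b from -0.0321 to 0.17. In siP300 Dnmt3a ran from -0.00031 to 0.399, and in siComb Tdg from -0.176 to 0.258. In siKat6a Tet1 ran from -0.112 to 0.0409, Tet2 from -0.124 to 0.0362, Tet3 from -0.0644 to 0.161 and Uhrf1 from -0.152 to 0.159. In siKat6b Tet3 ran from -0.355 to 0.0203 and Uhrf1 from -0.204 to 0.0799. In siComb against siP300 Tet1 ran from -0.311 to 0.132, Tet2 from -0.185 to 0.475 and Tet3 from -0.526 to 0.189. In siControl against Vehicle Dnmt1 ran from -0.138 to 0.0852, Tet1 from -0.21 to 0.0121 and Tet3 from -0.0291 to 0.21.

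Over all genes, the number called moved by over 1.5 times in 5 comparisons. It was 0 in siKat6a, 15 without a filter and 1 with DESeq2. In siKat6b it was 4, and 1 to 755 over the settings. In siComb against siP300 it was 153, and 0 to 733. In siComb against siKat6b it was 6053 and moved without the 4 libraries, a fit in which siKat6b 2 was the only library left in its group. In siControl against Vehicle it was 3653, with 6185 by limma-voom, 5880 with just the 2 groups, 2342 without Vehicle 3 and 2060 without siControl 3. With library size alone the share of calls that were higher moved from 53.2 to 68.4% in siComb against siKat6a, from 52.0 to 64.0% against siKat6b and from 64.7 to 47.5% against siP300. The standard errors of Tet3 and Tdg, 0.34 to 0.51, were the widest of the 9 genes in all 11 comparisons.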
